A study of Mus musculus with 2 samples.

Results

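Prostaglandin and leukotriene synthesis genes were compared between 1 library of stretched mouse skin and 1 library of non-stretched skin. With earlier results of these data known, 10 of the 24421 genes in the table of counts were chosen by name for their known roles. These were the cyclooxygenases Ptgs1 and Ptgs2, the terminal prostanoid synthases Ptges, Ptgis, Ptgds, Hpgds and Tbxas1, and the leukotriene genes Alox5, Alox5ap and Ltc4s. All 10 were measured in both libraries, and the fewest counts of a member were 88 in the control library (Tbxas1) and 94 in the stretched one (Ltc4s).

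Both libraries were made from the whole layer of skin of wild type C57BL6/J mice at day 5. The stretched library came from skin stretched on the back for 5 days at a labelled strain of 33%, which the methods describe as a starting strain that was raised each day, and the control library from skin without strain. The methods describe female mice 8 weeks old whose hair follicles were in telogen, the resting phase. How many mice gave each of these libraries, and whether the control skin sequenced here carried a device, is not stated for them in the sources used here. With 1 library per condition there are no replicates, and no p-value is given for any difference. Stretch cannot be told apart from any other way in which the skin pieces differed.

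Prostanoids and leukotrienes are short-lived lipid signals made from arachidonic acid. A phospholipase frees the fatty acid from membranes, and the cyclooxygenases turn it into prostaglandin H2, from which each terminal synthase makes its own product. In the other branch, 5-lipoxygenase and its activating protein make leukotriene A4, which becomes leukotriene B4 or the cysteinyl leukotrienes. In skin these lipids act in inflammation and pain, and prostaglandins also act on the hair cycle, where prostaglandin D2 is known as an inhibitor of hair growth and prostaglandins E2 and F2 alpha as promoters of it.

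The depth was 14152379 counts for the control and 11648655 for the stretched library. A gene was taken as above the floor with more than 3 counts, which correspond to 0.212 and 0.258 CPM (counts per 1000000 counts of the library). The log2 fold change is that of CPM in stretched over control skin. Its 95% interval is the exact Clopper-Pearson interval of the share of the counts found in stretched skin and covers counting error only. Over the 16255 genes above the floor in at least 1 library, the median log2 fold change was -0.12. The interval lay wholly above 0 for 18.1% of these genes and wholly below 0 for 33.5%. With TMM scaling (trimmed mean of M values), which adds 0.10 to every log2 fold change, both shares were 24.1%.

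Of the 10 genes, 6 had an interval wholly above 0, which were Ptgs1, Ptges, Ptgis, Hpgds, Tbxas1 and Alox5ap. The share of all genes was 18.1%, or 24.1% with TMM scaling, which left the same 6 members above 0. Ptgds alone had an interval wholly below 0, beside 33.5% of all genes. These shares are not like for like, because the genes were not matched for counts and intervals narrow as counts rise. Ltc4s, the member with the fewest counts, had 186 over both libraries, whereas all genes include many near the floor. The intervals of Ptgs2, Alox5 and Ltc4s included 0. The 10 members had a median of 0.34 on this scale, against -0.12 over all genes, and their summed level was 288 CPM in the control and 392 CPM in the stretched library.

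**Figure D1:**
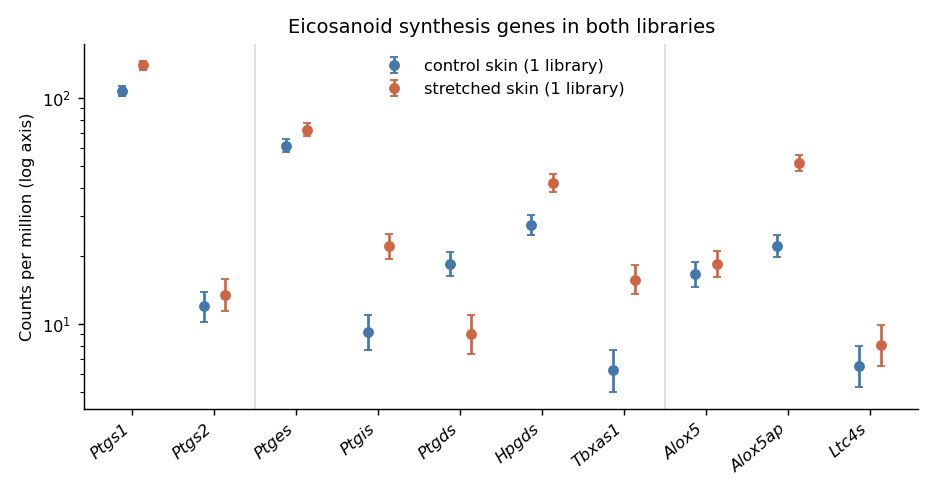
Level of each gene in CPM (log axis) in the control library (blue) and the stretched library (orange), with 95% Poisson intervals that cover counting error only; grey lines separate the cyclooxygenases, the prostanoid synthases and the leukotriene genes. The points lie apart by the most for Tbxas1, Ptgis and Alox5ap, which were higher in stretched skin, and for Ptgds, which was lower.

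The stretches of genome just before the start sites of 4 members are shown because these genes span the range of the results. Ptgs1 had the most counts, Tbxas1 the highest log2 fold change, Ptgds the lowest, and Alox5 an interval that included 0. RefSeq promoters on GRCm38.p6 matched 8 of the 10 members by symbol, and Alox5ap and Ptgis were not among them. Each sequence is given from 5′ to 3′ on the strand of its gene, begins 250 bases before the start site, and stops there or at the first base of an exon of the same gene. Capitals mark matches on either strand to a TATA box, a GC box, an AP-1 element or the core of the site of PU.1, a factor of myeloid cells, whose letters are given after the sequences. The first is at chr2:36230176-36230425 on the plus strand, the second at chr6:38918736-38918979 on the plus strand, the third at chr2:25469843-25469999 on the minus strand and the fourth at chr6:116461179-116461428 on the minus strand. The RefSeq start sites of Tbxas1 and Ptgds, and those of Ptges, Hpgds and Ltc4s, which are not shown, lie inside the GENCODE gene spans given with the results, so these stretches precede an internal start and not the outermost one.
Ptgs1: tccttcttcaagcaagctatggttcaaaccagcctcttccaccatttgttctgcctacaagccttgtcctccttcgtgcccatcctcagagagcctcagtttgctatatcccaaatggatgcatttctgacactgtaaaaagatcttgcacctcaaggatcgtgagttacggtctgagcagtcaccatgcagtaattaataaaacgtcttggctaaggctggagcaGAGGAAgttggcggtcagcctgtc
Tbxas1: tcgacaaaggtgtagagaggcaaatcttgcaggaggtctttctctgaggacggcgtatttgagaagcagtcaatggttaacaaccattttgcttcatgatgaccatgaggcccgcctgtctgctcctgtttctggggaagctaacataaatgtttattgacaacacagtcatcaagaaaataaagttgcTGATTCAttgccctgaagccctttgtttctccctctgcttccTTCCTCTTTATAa
Ptgds: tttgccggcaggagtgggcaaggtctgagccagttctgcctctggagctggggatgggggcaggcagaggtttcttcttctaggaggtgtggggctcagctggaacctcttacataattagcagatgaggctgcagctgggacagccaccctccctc
Alox5: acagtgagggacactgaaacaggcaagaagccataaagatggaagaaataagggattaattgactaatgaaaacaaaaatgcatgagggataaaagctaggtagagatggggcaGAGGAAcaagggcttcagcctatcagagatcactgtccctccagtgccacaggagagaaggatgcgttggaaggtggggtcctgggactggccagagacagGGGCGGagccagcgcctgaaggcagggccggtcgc

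Over the full 250 bases, the PU.1 core GAGGAA on either strand was found before Ptgs1, Ptgs2, Ptges, Hpgds, Tbxas1 and Alox5, which is 6 of the 8 members, against 23.3% of 32851 promoters of the same length. In Ptgs1 it lies 24 to 19 bases before the start and in Tbxas1 19 to 14 bases before it. In Hpgds it lies 49 to 44 bases before the start, past the first base of an exon of the same gene. The AP-1 element TGANTCA was found before Ptgds and Tbxas1 (6.75% of all promoters), and the match of Ptgds, 35 to 29 bases before the start, lies in the exonic part that is not shown. The GC box GGGCGG was found before Ptgs2, Ptges and Alox5 (32.7%), and the TATA box TATAAA before Tbxas1 alone (12.4%), in a pair of matches that overlap. TGACGT (core of the cyclic AMP element) and CACGTG (E box) were found before none of the 8, and 6.47% and 6.02% of all promoters hold them. The genes with GAGGAA include 4 whose interval lay above 0 (Ptgs1, Ptges, Hpgds and Tbxas1) and 2 whose interval included 0 (Ptgs2 and Alox5). A match is a run of letters and does not show that a factor binds.

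Of the cyclooxygenases, the constitutive form was the higher in both libraries. Ptgs1 encodes cyclooxygenase 1, which most tissues carry at a steady level, and its gene spans chr2:36230426-36252272 in mm10 (gene positions are those of GENCODE M21). The control library held 1525 counts of it and the stretched library 1624, or 108 and 139 CPM. The log2 fold change was 0.37 (interval 0.27 to 0.47), a 1.29-fold difference. Ptgs2 encodes cyclooxygenase 2, the form induced by cytokines and injury, on chromosome 1 from 150100031 to 150108227. It had 169 counts and 157 counts, or 11.9 and 13.5 CPM, and at this depth no difference could be detected (0.17, interval -0.15 to 0.50). The interval of Ptgs2 leaves room for a fold change between 0.902 and 1.41.

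Per length, in FPKM (CPM per kilobase of exon), Ptgs1 stood at 27.7 and 35.9 and Ptgs2 at 2.61 and 2.94 in control and stretched skin. Ptgs1 thus held 91.4% of the summed cyclooxygenase level without stretch and 92.4% with it. The ratio of the counts of Ptgs1 to those of Ptgs2, which does not depend on how the libraries are scaled, was 1.15-fold higher in stretched skin (interval 0.906 to 1.45), so the balance of the pair did not differ detectably.

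The 5 terminal prostanoid synthases went both ways, and none had an interval that included 0. Tbxas1 encodes thromboxane A synthase, known from platelets and macrophages, whose product contracts vessels and activates platelets. It lies on chromosome 6 from 38875404 to 39084585. The control library held 88 counts and the stretched library 183, or 6.22 and 15.7 CPM. Its log2 fold change of 1.34 (interval 0.96 to 1.72) was the largest of the 10 genes, although the intervals of Ptgis and Alox5ap overlapped it. Ptgis encodes prostacyclin synthase, whose product relaxes vessels and opposes thromboxane, and lies on chromosome 2 from 167191805 to 167240604. It had 130 and 257 counts, or 9.19 and 22.1 CPM, which gives 1.26 on the log2 scale (interval 0.95 to 1.58). The 2 synthases of opposing products were therefore both higher, and the ratio of Ptgis to Tbxas1 was 0.951-fold that of control skin (interval 0.673 to 1.34).

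The pair of genes for prostaglandin D2 synthesis went opposite ways. Ptgds encodes the lipocalin-type synthase, also a carrier of small lipophilic molecules, on chromosome 2 from 25466709 to 25470046. Its counts were 261 without and 105 with stretch, or 18.4 and 9.01 CPM. Its log2 fold change was -1.03 (interval -1.37 to -0.70), which leaves the level in stretched skin at 0.489-fold that of control. Hpgds encodes the hematopoietic synthase of mast cells, macrophages and some T cells, on chromosome 6 from 65117293 to 65144908. It had 389 and 491 counts, or 27.5 and 42.2 CPM, which gives 0.62 on the log2 scale (interval 0.42 to 0.81). The ratio of Hpgds to Ptgds was 3.14-fold higher in stretched skin (interval 2.39 to 4.12). Per length, Ptgds stood above Hpgds in control skin (11.2 against 4.28 FPKM), whereas in stretched skin Hpgds stood at 6.56 and Ptgds at 5.47, a gap within counting error. The summed FPKM of the 2 genes was 15.5 without and 12.0 with stretch, whereas their summed CPM, which takes no account of length, was 45.9 and 51.2.

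Ptges encodes the inducible membrane-bound prostaglandin E synthase that is coupled to cyclooxygenase 2, on chromosome 2 from 30889471 to 30929863. It was the most abundant of the 5 synthases per length, at 15.6 FPKM in control and 18.4 in stretched skin. It had 870 and 844 counts, or 61.5 and 72.5 CPM, or 0.24 on the log2 scale (interval 0.10 to 0.38). Relative to Ptgis, Ptges was 0.491-fold its value in control skin (interval 0.386 to 0.622), and relative to Ptgds it was 2.41-fold (interval 1.88 to 3.11). Ptges and Ptgs2 are often induced together, and here their folds were 1.18 (interval 1.07 to 1.30) and 1.13 (interval 0.902 to 1.41).

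The makeup of the synthases therefore differed between the libraries mostly in Ptgds and Ptgis. Ptgds made up 31.6% of the summed FPKM of the 5 genes in control skin and 13.4% in stretched skin. Ptgis made up 10.1% and 21.1%, Hpgds 12.1% and 16.1%, and Tbxas1 1.93% and 4.24%. Ptges, at 44.2% and 45.2%, was first in both. These shares rest on gene length: with the longest transcript in place of all exons, Hpgds made up 21.1% in stretched skin and came ahead of Ptgis at 20.4%, while Ptgds was at 31.9% and 13.2%. As shares of the counts, without length, Ptgds made up 15.02% and 5.59%, below Hpgds (22.4% and 26.1%) in both libraries, Ptgis 7.48% and 13.7%, and Ptges 50.1% and 44.9%.

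**Figure D2:**
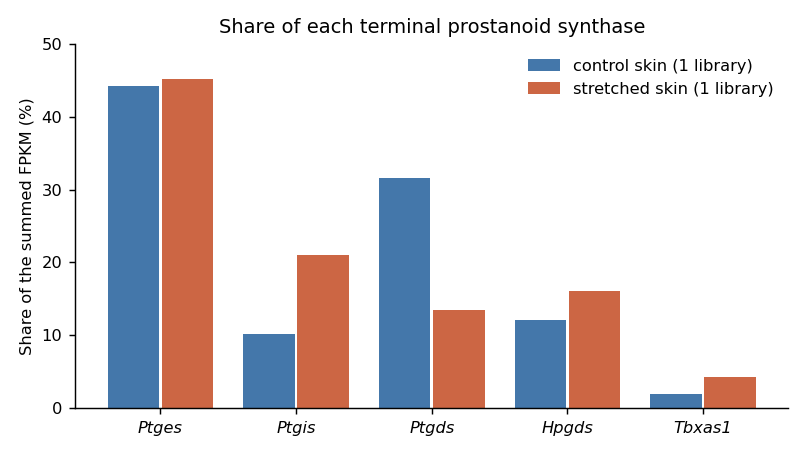
Share of each terminal prostanoid synthase in the summed FPKM of the 5 genes (percent, axis from 0) in the control library (blue) and the stretched library (orange), with no error bars because each bar is 1 library. Ptges stays near 45%, Ptgds goes from 31.6% to 13.4% and Ptgis from 10.1% to 21.1%.

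In the leukotriene branch 1 of the 3 genes differed beyond counting error. Alox5ap encodes the 5-lipoxygenase activating protein (FLAP), a membrane protein that presents arachidonic acid to the enzyme, on chromosome 5 from 149264767 to 149288153. Its counts were 312 without and 601 with stretch, or 22.0 and 51.6 CPM, which gives 1.23 on the log2 scale (interval 1.03 to 1.43). Alox5, the 5-lipoxygenase itself, lies on chromosome 6 from 116410077 to 116461178. It had 235 and 215 counts, or 16.6 and 18.5 CPM, and its interval included 0 (0.15, interval -0.12 to 0.43). Ltc4s makes leukotriene C4, the first of the cysteinyl leukotrienes, and lies on chromosome 11 from 50236461 to 50238616. It had 92 and 94 counts, or 6.50 and 8.07 CPM (0.31, interval -0.12 to 0.74).

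The gene of the activating protein was thus higher relative to its partner genes. The ratio of Alox5ap to Alox5 was 2.11-fold higher in stretched skin (interval 1.66 to 2.67), and per length it went from 3.84 to 8.08. Alox5ap to Ltc4s was 1.89-fold higher (interval 1.35 to 2.62), whereas Alox5 to Ltc4s was 0.895-fold with an interval of 0.627 to 1.28. Of the exonic bases of Alox5ap 13.3%, and of Ltc4s 26.4%, also lie in an exon of another gene, and the treatment of strand is not given, so reads of the overlapping genes cannot be told apart there.

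**Figure D3:**
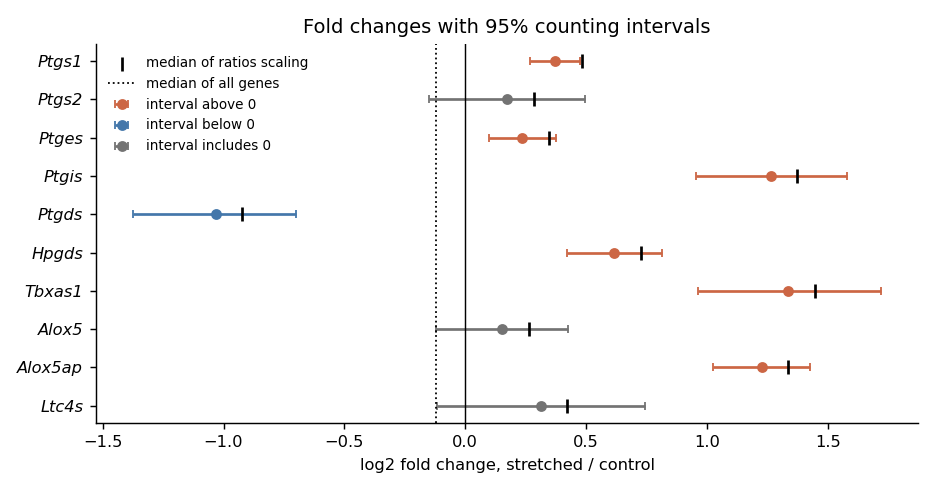
The log2 fold change of each gene, stretched over control, with its 95% counting interval (1 library per condition). Orange marks an interval above 0, blue below 0 and grey an interval that includes 0; the black ticks are the same values with median of ratios scaling, which adds 0.11, and the dotted line is the median of all genes at -0.12.

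The study's methods filter genes by the product of both FPKM values (EV above 10) and then ask for a ratio of at least 2 or at most 0.5, and name no added value. With 1 added to each FPKM before both steps, which departs from the methods, 2 of the 10 genes were called upregulated and 0 downregulated. With nothing added, 8 genes passed, and 2 were called upregulated and 1, Ptgds, downregulated, beside 2.94% and 2.86% of the 9683 genes that passed. With 1 added, 9 of the 10 genes passed the filter, and 2.61% of the 10909 genes that passed it were upregulated and 2.44% downregulated. The 2 upregulated genes were Ptgis and Alox5ap both ways. Tbxas1, with an EV of 4.59, did not pass the filter, although its fold of CPM was 2.53. Ptgds had a log2 ratio of -0.91 once 1 was added, short of the threshold, and -1.03 with nothing added.

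Ordered by FPKM, Ptgs1 (27.7) led in control skin, followed by Ptges (15.6) and Alox5ap (15.5), which did not differ beyond counting error. Ptgds (11.2) and Ltc4s (6.41) came next, then Hpgds (4.28), Alox5 (4.04) and Ptgis (3.58), whose neighbours in this run were not apart, then Ptgs2 (2.61) and Tbxas1 (0.684). In stretched skin Alox5ap (36.3) and Ptgs1 (35.9) stood level within counting error at the top, with Ptges (18.4) below them. Ptgis (8.59), Ltc4s (7.96), Hpgds (6.56), Ptgds (5.47) and Alox5 (4.50) formed a run in which no neighbours were apart, and Ptgs2 (2.94) and Tbxas1 (1.73) were again last. Ptgis thus stood at rank 8 without and rank 4 with stretch, and Ptgds at rank 4 and rank 7. With the length of the longest transcript, Ptgis stood at rank 8 and rank 6 and Ptgds at rank 4 and rank 7, Ptgs1 was first in both libraries, and Tbxas1 came ahead of Ptgs2 in stretched skin.

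The 56 other genes of these pathways went both ways. Of these, 52 were above the floor, with a median log2 fold change of -0.07. The interval was above 0 for 9 (17.3%) and below 0 for 16 (30.8%), beside 18.1% and 33.5% of all genes. With TMM scaling 14 intervals were above 0 and 6 below. The genes were again not matched for counts. By the filter and fold with 1 added, 2 were upregulated and 2 were downregulated, of 37 that passed the filter (5.41% each way, beside 2.61% and 2.44% of all genes that passed). With nothing added to the FPKM computed here, which is not the Cufflinks FPKM of the methods, 31 passed. Of these, 1 was upregulated (Alox12e) and 2 were downregulated (Ggt1 and Pla2g2e), beside 2.94% and 2.86% of all genes that passed.

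Upstream of the cyclooxygenases, 6 of the 12 phospholipases above the floor had an interval below 0, 6 an interval that included 0 and none an interval above 0, with a median of -0.25. With TMM scaling 2 intervals were below 0, those of Pla2g2e and Pla2g16, and 2 were above 0. Pla2g4a, the cytosolic phospholipase A2 that is the main supplier of arachidonic acid, had 496 and 345 counts (-0.24, interval -0.45 to -0.04), an interval that holds the median of all genes. Pla2g2e, a secreted form, had 81 and 30 counts (-1.15, interval -1.81 to -0.53). Pla2g2f, the form with the most counts, stood at 4231 and 3491 (0.00, interval -0.06 to 0.07). Pla2g2a and Pla2g10 were at 0 counts in both libraries. Of these phospholipases, Pla2g2e alone was named by the rule, and the others were chosen for mention after their values were seen.

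Among the 6 other prostaglandin synthases and reductases, 3 had an interval below 0 and 1 above it (median -0.18). The one above 0 was Akr1c18, an aldo-keto reductase that breaks down progesterone, with 157 and 258 counts (11.1 and 22.1 CPM, log2 interval 0.71 to 1.29). Cbr1 (-0.28) and the further prostaglandin E synthases Ptges2 (-0.30) and Ptges3 (-0.18) had intervals below 0, but all 3 intervals held the median of all genes, and with TMM scaling all 3 included 0. Of the stretches of 76 bases in Ptges3, 18.4% are also found in other genes. Akr1b3, which encodes aldose reductase, had 4 and 3 counts and 12.0% of its sequence, taken in stretches of 76 bases, is also found in other genes, so its level is uncertain. Of the 5 genes of transport and inactivation, Hpgd, the dehydrogenase that starts prostaglandin breakdown, was higher (461 and 517 counts, 0.45, interval 0.26 to 0.63). Ptgr1 (-0.43, interval -0.60 to -0.27), a reductase of the following step, had an interval below 0. Ptgr2 (-0.24, interval -0.42 to -0.07), a further reductase, did too, but this interval holds the median of all genes and includes 0 with TMM scaling, and 32.0% of its exonic bases lie in exons of another gene. The transporter Slco2a1 was level (898 and 723 counts, -0.03, interval -0.18 to 0.11). Hpgd, Cbr1, Ptges2, Ptges3, Akr1b3, Ptgr1 and Ptgr2 were chosen for mention after their values were seen.

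Of the 9 prostanoid receptors, 7 had an interval that included 0, 1 above 0 and 1 below 0, with a median of 0.28. With TMM scaling 2 were above 0 and none below. Ptgfr, the prostaglandin F receptor, had the most counts (515 and 378, log2 fold change -0.17, interval -0.36 to 0.03). The receptors for the products whose synthases differed most were measured on few counts: Ptgir for prostacyclin at 60 and 67 (interval -0.08 to 0.97), Tbxa2r for thromboxane at 67 and 67 (interval -0.23 to 0.79), Ptgdr at 6 and 9 and Ptgdr2 at 10 and 14 for prostaglandin D2. The intervals of these 4, which were chosen for their products after their values were seen, included 0 with scaling by total counts, and with TMM scaling that of Ptgir lay above 0. Of the exonic bases of Ptgdr 22.1%, and of Ptgdr2 39.0%, also lie in exons of another gene.

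Further down the leukotriene branch both directions occurred among 9 genes, of which 4 had an interval above 0 and 3 below. Ggt1, a gamma-glutamyl transferase that turns leukotriene C4 into D4, stood at 321 and 70 counts (-1.92, interval -2.31 to -1.54) and was downregulated. Its relative Ggt5 went the other way at 270 and 333 (0.58, interval 0.35 to 0.82). Cyp4f18, which inactivates leukotriene B4 and is known from neutrophils, had 35 and 88 counts (1.61, interval 1.03 to 2.22) and was upregulated with 1 added to FPKM, but did not pass the filter with nothing added. Dpep2, a dipeptidase of the step from leukotriene D4 to E4, had 93 and 197 (1.36, interval wholly above 0). Of its exonic bases, however, 44.0% lie in exons of other annotation entries, among them another entry named Dpep2. Lta4h, which makes leukotriene B4, was level at 943 and 783 counts (0.01, interval -0.13 to 0.15). Ltb4r1, the high-affinity receptor for leukotriene B4 on leukocytes, had 119 and 191 counts (0.96, interval 0.63 to 1.31), the 1 interval above 0 among the 5 leukotriene receptors above the floor, to which TMM scaling added that of Cysltr1, a receptor for cysteinyl leukotrienes. Ggt5, Lta4h and Cysltr1 were chosen after their values were seen.

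Of the 6 other lipoxygenases, Alox12e, an epidermal 12-lipoxygenase, was upregulated at 748 and 1307 counts (1.09, interval 0.96 to 1.22). Alox8, the mouse 8-lipoxygenase, was downregulated at 287 and 47 counts (-2.33, interval -2.81 to -1.88) with 1 added to FPKM, and did not pass the filter with nothing added. The intervals of the other 4 included 0, among them those of Alox12b and Aloxe3, the lipoxygenases of the epidermal barrier, chosen for mention after their values were seen. With TMM scaling the interval of Alox12b lay above 0.

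**Figure D4:**
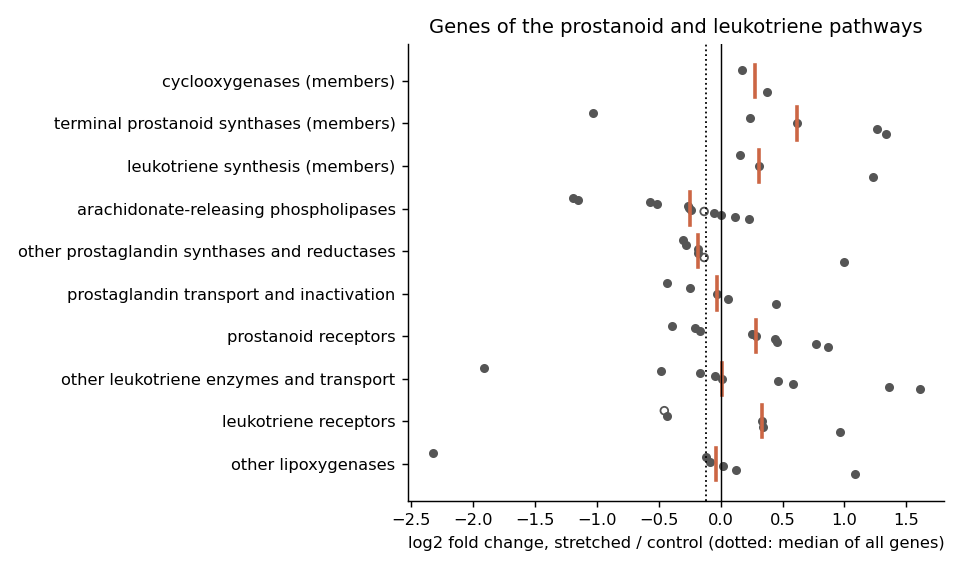
The log2 fold change, stretched over control, of each gene above the floor in the 3 sets of members and the 7 sets of other pathway genes (1 library per condition). Each point is a gene, open points are bounds with 3 counts or fewer in 1 library, orange bars are medians and the dotted line is the median of all genes; the phospholipases centre at -0.25 and the member synthases at 0.62.

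Whole skin holds many cell types, and the markers of several differed between the libraries beside these genes. In such bulk tissue, fewer cells of a type and less RNA per cell cannot be told apart. The 12 macrophage markers had a median log2 fold change of 1.34, with 11 intervals above 0, and their summed level was 947 CPM in control skin and 2243 CPM in stretched skin. Lyz2, the macrophage marker with the most counts, had 3975 and 8471 (1.37). The list median stands beside 1.34 for Tbxas1, 1.23 for Alox5ap and 0.62 for Hpgds, genes known from macrophages, and beside 0.15 for Alox5, which macrophages also express. The 8 mast cell markers had a median of 0.55 and summed to 269 and 384 CPM, with 6 intervals above 0 and 1 below, and the mast cell protease Mcpt4 had 868 and 1076 counts (0.59). Hpgds and Ltc4s are known from mast cells too. The 6 neutrophil markers above the floor, some with few counts, had a median of 2.48, or 1.66 with 1 CPM added to both values, and summed, with the other listed ones, to 14.7 and 71.8 CPM. S100a8 had 57 and 283 counts, and Mpo and Elane were at or under 3 counts in both libraries. Of the 6 platelet and megakaryocyte markers 5 were above the floor, with a median of 0.18, 1 interval above 0 and 1 below. Itga2b had 127 and 269 counts (1.36), and the list summed to 17.9 and 32.5 CPM, whereas Gp5 had 13 and 1. The counts were 12 and 9 for Gp1ba, 99 and 92 for Gp1bb (92.9% of whose exonic bases lie in exons of other genes), 2 and 8 for Ppbp and 1 and 0 for Gp9, and these stand beside 88 and 183 for Tbxas1. Mpo, Elane and the platelet markers other than Itga2b were chosen for mention after their values were seen.

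For the vessel wall, where prostacyclin synthase is known, the 8 endothelial markers had a median of 0.40 (269 and 356 CPM) and the 6 smooth muscle markers 0.32 (624 and 681 CPM), beside the 1.26 of Ptgis. Both lists went both ways. The interval was above 0 for 4 endothelial markers and below 0 for 1, and above 0 for 4 smooth muscle markers and below 0 for 2. Pecam1, an endothelial adhesion molecule, had 851 and 988 counts (0.50), and Acta2, smooth muscle actin, 3976 and 3604 (0.14). The fibroblast markers, of which all 7 intervals were above 0, had a median of 0.25, with Col1a2 at 183341 and 275799 counts (0.87) and summed levels of 27393 and 50470 CPM. Most of this summed level lay in Col1a2 (12954.8 and 23676.5 CPM) and Col1a1 (11879.3 and 23812.6 CPM). Col1a1 was chosen for mention after its values were seen. Beside the -1.03 of Ptgds, the 6 dermal papilla markers had a median of -0.92, with 5 intervals below 0 and a summed level of 116 and 57.6 CPM. Prdm1, the marker among these with the most counts, had 849 and 329 (-1.09). The 6 adipocyte markers, with 6 intervals below 0, had a median of -0.78 and summed to 1295 and 823 CPM, with Fabp4 at 9146 and 5115 counts (-0.56). The part of any of these cell types in the results of the members was not tested.

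The 7 keratinocyte markers had a median of 0.02 (15918 and 16527 CPM), with Krt10 at 63504 and 53008 counts, so the labelled tissue showed its defining keratins. They went both ways, from -0.49 to 0.28, with 4 intervals above 0 and 2 below. Mouse skin includes a sheet of muscle, and the 9 skeletal muscle markers had a median of -0.53 (31873 and 22659 CPM). These went both ways, with Myh4 at 6432 and 271 CPM and with Myh1 (1.10) and Myh2 (1.46) higher, 3 genes chosen for mention after their values were seen. Acta1, with the most counts of the list, had 127849 and 100096 (-0.07). The medians were 0.49 for 6 dendritic and Langerhans cell markers (26.4 and 44.8 CPM) and 0.07 for 6 T cell markers (21.2 and 21.1 CPM). B cell markers summed to 0.707 and 1.12 CPM and eosinophil and basophil markers to 0.565 and 1.80 CPM, and Cd207 had 135 and 153 counts, Cd247 of T cells 158 and 107, Cd79b 8 and 9 and Siglecf 6 and 8. Of the exonic bases of Cd247, 60.3% lie in exons of other genes. The defining markers Ms4a1 and Epx were at 0 counts in both libraries.

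**Figure D5:**
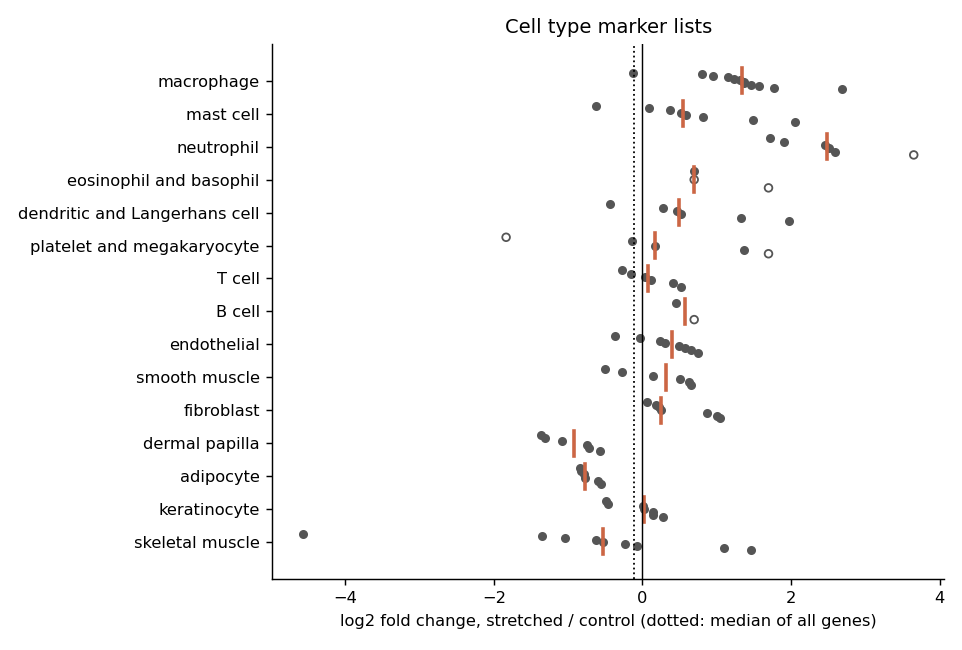
The log2 fold change, stretched over control, of each marker above the floor in 15 cell type lists (1 library per condition). Points are genes, open points are bounds with 3 counts or fewer in 1 library, orange bars are medians and the dotted line is the median of all genes; the macrophage markers centre at 1.34 and the dermal papilla markers at -0.92.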

How the data were processed

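RNA-seq of whole-layer skin was analysed in 1 control and 1 stretched library. The authors deposited read counts per gene symbol, not normalized, from single-end reads that had passed the FASTX-Toolkit and were mapped by TopHat2 to mm10. Which counter and annotation were used, and how strand and multiply mapped reads were handled, is not given in the sources used here. Their Cufflinks FPKM values were not used.

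CPM used the total counts. FPKM was computed with the union of exons in GENCODE M21, which matched 24025 of the 24421 symbols. Fold changes used 3 in place of any lower count and were left out where neither count exceeded 3. Intervals are exact 95% Clopper-Pearson intervals, and ratios between members carry the exact conditional interval of the odds ratio. They cover counting error only. Levels carry exact Poisson intervals. No test across replicates was possible, so no p-value is given. Calls used the EV and fold thresholds of the study's methods on FPKM with 1 added, a choice that departs from the methods, which name no added value; the calls with nothing added are given beside them for the members and the other pathway genes.

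Members, lists and tests were chosen with earlier results of these data known. Named genes were all members, other pathway genes that were called or had at least 100 counts and an interval past 0.5 on the log2 scale, otherwise the gene of a list with the most counts, and of marker lists the gene with the most counts and markers at 0. Genes named outside this rule are marked as such in the text. No gene was named for likeness of pattern, since 2 libraries give 1 ratio per gene. The alternatives tried were 4 other scalings (TMM and upper quartile in edgeR 4.0.16, the size factors of DESeq2 1.42.0, and totals that leave out the top 50 genes), the pseudocount, the EV threshold, CPM for FPKM, 1 CPM added to both values, a minimum of 20 counts and the longest transcript. The calls and intervals were tested on simulated data. Python 3.11.15, scipy 1.17.1 and R 4.3.3 were used. Ly6g and Flg of the marker lists were not analysed here.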

Additional observations from a re-analysis of the deposited data

How the results depend on the processing

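The scaling alternatives add 0.10 (TMM), 0.11 (median of ratios), 0.10 (upper quartile) or 0.06 (totals that leave out the top 50 genes) to every log2 fold change. Under each of these 4, the intervals of the same 6 members stayed above 0 and that of Ptgds below 0, and no member changed its sign. The median of the members was 0.45 with median of ratios. Ptgs1, with the narrowest interval, moved just past its upper bound with TMM (0.47) and median of ratios (0.48). Ptgis and Alox5ap were upregulated in 9 of the 10 alternatives for the calls, and with EV above 100 only 1 member, Alox5ap, was left, because 3 members pass that filter. With CPM in place of FPKM Tbxas1 was upregulated too. Ptgds was the 1 downregulated member with a pseudocount of 0 and with 0.1. Of all genes, 454 were upregulated and 442 downregulated with CPM, and 137 and 130 with EV above 100, against 285 and 266. Ratios between members do not depend on scaling. Alternatives moved 15 of 20 shares of synthases, which depend on gene length. The medians of pathway lists stayed within the median of the counting bounds of their genes in 60 of 60 cases, while 19 of 88 medians of marker lists moved beyond it. Without Alox5ap and Ltc4s, which overlap another gene by 10% or more and were left out after seeing the data, the median of the members was 0.30. No paired analysis was possible because each condition has 1 library, which also means that none could be dropped. Depth limits Ptgs2, Alox5 and Ltc4s, and most receptors, where the intervals allow changes in both directions.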
